A study of Mus musculus with 15 samples.

Results

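The cytosolic ribosomal protein genes were followed across 15 Smart-Seq2 libraries of mouse regulatory T cells. Members were the protein-coding genes whose symbol in the GENCODE vM21 annotation names a protein of the large or small cytosolic ribosomal subunit (Rpl or Rps with a number, Rplp0 to Rplp2, and Rpsa), leaving out pseudogenes and the Rps6k kinases. The annotation holds 83 such genes, of which 82 were listed in both sets of tables, 51 of the large and 31 of the small subunit, among 30949 genes listed in both. All 82 passed the filter on low values. Rps12 was listed for the bead libraries only, at 180, 176 and 387 TPM, a length-corrected share of the transcripts in a library, in WT replicates 1 to 3 and at 70.0 and 0 TPM in KO replicates 4 and 5, and was therefore in no comparison.

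Spleens and lymph nodes of C57BL/6 females supplied all cells. The mice were heterozygous for Foxp3 YFP-Cre and carried Dock8 flox/flox, and the cells were sorted as CD25+CD39+ regulatory T cells. Foxp3 lies on the X chromosome, so such females hold regulatory T cells with and without the Cre. The gate is given as CD4+ in the design and as CD3+ in the protocol. The YFP+ cells, which express the Cre from the Foxp3 locus, are the DOCK8-deficient group (KO below), and the YFP- cells of mice of the same genotype are the WT group, whose Dock8 alleles are floxed too. Cells were cultured for 16 h in medium alone (WT n = 4, KO n = 6) or with anti-CD3+CD28 beads at 1 bead per cell (WT n = 3, KO n = 2). The labels call the samples independent without naming mice or cultures, so p-values here reflect sample-to-sample spread, which may be technical. The KO cells express the Cre from the Foxp3 locus and the WT cells do not, which cannot be told apart from the loss of DOCK8 for any member. The 4 X-linked members, Rpl10, Rpl36a, Rpl39 and Rps4x, are moreover read from different active X chromosomes in YFP+ and YFP- cells. That too cannot be told apart from the loss of DOCK8 in them.

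A ribosome holds one copy of nearly every ribosomal protein, assembled on ribosomal RNA in the nucleolus and joined into the small subunit, which reads the mRNA, and the large subunit, which makes the peptide bond. The mRNAs of these proteins begin with a cytosine and a run of pyrimidines, the 5′ terminal oligopyrimidine (TOP) motif, through which mTORC1 and the RNA-binding protein LARP1 set their translation. Naive and resting T cells are small and make little protein, and engagement of the T cell receptor with CD28 is known to raise ribosome production as cells grow.

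All 12 T cell and regulatory T cell markers, Foxp3 and Cd4 among them, were above 0 in every library, with a summed level of 1255 to 3909 TPM per library. Summed markers of other cells reached at most 7.09 TPM (myeloid), 15.1 (neutrophil), 26.6 (B cell), 28.3 (erythroid), 69.2 (CD8 T and NK cell), 76.2 (stroma and endothelium) and 133 TPM (plasma cell). Dock8 was at 14.6 ± 5.35 TPM (SD, n = 4) in WT and 8.58 ± 1.85 TPM (SD, n = 6) in KO cells without beads, and at 9.25 ± 0.763 (SD, n = 3) and 6.86 ± 1.47 TPM (SD, n = 2) with beads. A gene-level value cannot show whether the floxed exons were lost. Repeat sequences annotated as 11 predicted genes took 14.7 to 34.3% of the listed TPM in WT and 24.6 to 48.1% in KO libraries without beads, and 7.83 to 18.6% with beads. KO replicates 1, 2, 4 and 5 without beads each exceeded 35%. TPM is a share of a fixed total, so every other gene reads lower where these repeats take more.

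Ribosomal protein mRNA held a share of the listed transcripts that was about 3 times as large or more with beads than without in both genotypes. Without beads the 82 genes together made up 6.97, 4.05, 2.78 and 5.58% of the listed TPM in the unnumbered WT library and WT replicates 1 to 3. With beads they made up 15.4, 14.4 and 13.8% in the 3 WT libraries. The KO libraries ranged from 2.03 to 5.54%, median 2.54%, without beads and were at 10.8 and 13.2% with beads. Every bead library lay above every library without beads, and the ratio of the group means was 3.00 in WT and 3.92 in KO. After the repeat-derived genes were left out of the total, the means were 6.61 and 16.3% in WT and 4.81 and 14.1% in KO, ratios of 2.46 and 2.94. In bulk samples, more RNA per cell and more cells with that RNA cannot be told apart.

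**Figure D1:**
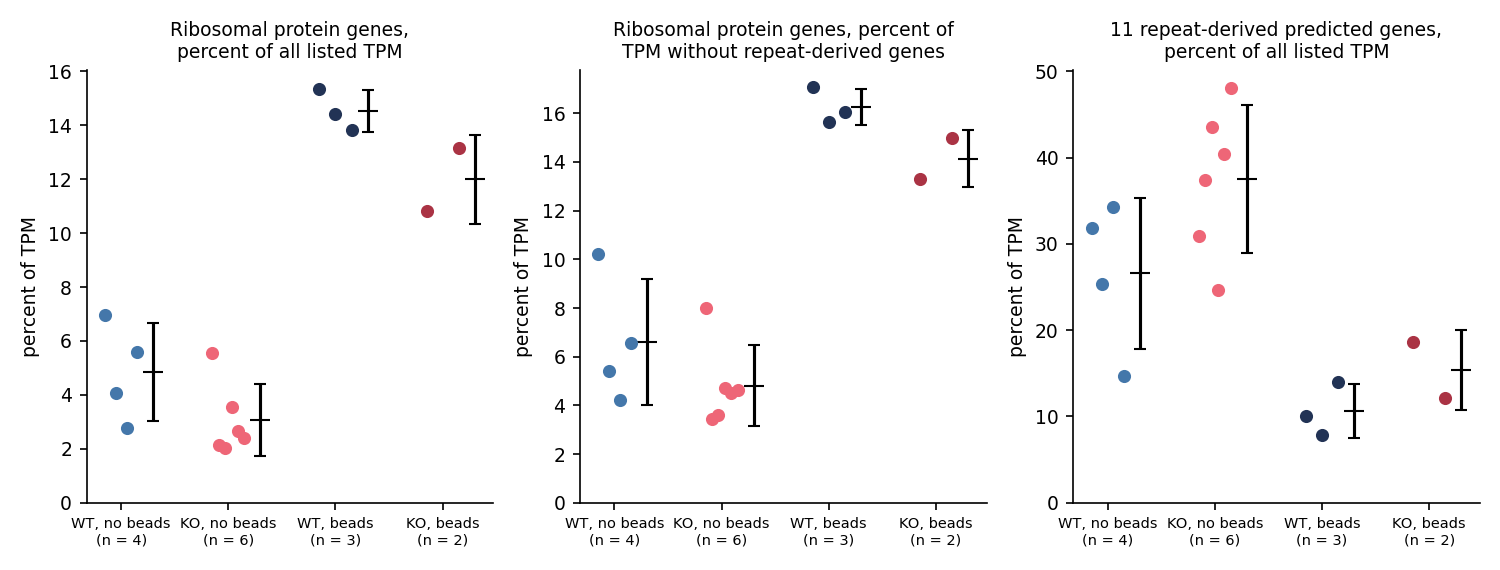
Summed TPM of 82 ribosomal protein genes as a percent of all TPM listed for a library (left), the same with 11 repeat-derived genes left out of the total (middle), and those repeat-derived genes themselves (right). Each point is a library, and the bar beside it is the group mean ± SD. Bead libraries sit between 10.8 and 15.4% on the left and those without beads between 2.03 and 6.97%.

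The balance between the subunits moved little. The summed TPM of the small-subunit genes was 1.04 ± 0.0518 times that of the large-subunit genes in WT cells without beads (SD, n = 4). With beads it was 0.998 ± 0.0124 times (SD, n = 3), and the WT ranges overlapped. In KO cells the ratio was 1.07 ± 0.0225 (SD, n = 6) and 1.00 ± 0.0170 (SD, n = 2). The KO ranges did not overlap, at 1.04 to 1.10 without and at 0.991 and 1.01 with beads. The fitted bead response had a median of 1.59 over 51 large-subunit and 1.49 over 31 small-subunit genes in WT, and of 2.00 and 1.91 in KO, on the log2(TPM + 1) scale, on which all differences below are given. That scale understates the change of genes at a few TPM.

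In WT cells 71 of the 82 genes rose with beads and none fell (limma, Benjamini-Hochberg adjusted p under 0.05 over 29989 genes, of which 11.2% were called, 4.6% higher and 6.63% lower). The median difference was 1.57, against -0.44 over all genes tested and -0.45 over 787 other genes of at least 50 TPM in every group mean. All 82 differences were above 0, and for 78 genes every bead library exceeded every library without beads, which held for 8.61% of all genes. No member had all bead libraries below, which held for 20.9%. In KO cells 71 genes rose and none fell, beside 5.95% and 2.15% of all genes, 8.11% in all. The median was 2.00, against -0.23 over all genes and 0.11 over the 787 abundant genes, and 79 members did not overlap, beside 11.2% of all genes. Without KO bead replicate 4 or 5 only 1 KO bead library was left, which was then assumed to vary like the other groups. Fewer members, and fewer of all genes, were called in these fits. The KO median was 2.05 without KO bead replicate 4 and 1.83 without replicate 5. The WT count was 40 without WT bead replicate 1 and 47 without replicate 2, beside 5.79 and 6.22% of all genes called in either direction. With KO replicates 1, 2, 4 and 5 without beads left out, the KO count was 19, beside 3.5% of all genes, and the median was 1.34. Markers of other cells differed with beads too. The 3 plasma cell markers summed to 6.87 to 50.1 TPM without and 59.0 to 133 TPM with beads, where Xbp1 was higher and Jchain and Sdc1 were at most 1.98 TPM. The 4 stroma and endothelium markers summed to 26.6 to 76.2 TPM without and 12.6 to 26.3 TPM with beads, most of it Pecam1, and the T cell and regulatory T cell markers of KO cells to 1255 to 2025 and to 3562 and 3909 TPM. Of the CD8 T and NK cell markers, Klrb1c went from 22.3 to 6.43 TPM and Nkg7 from 16.4 to 29.6 TPM as WT group means. Cd8a, Cd8b1 and Ncr1 were lower with beads in WT. The summed CD8 T and NK cell markers overlapped in WT, at 30.6 to 69.2 TPM without and 27.5 to 59.7 TPM with beads. Their part in the bead response was not tested.

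Of the 82 genes, 69 rose in both genotypes, Rpl19 and Rpl35 were called in WT alone and Rps15a and Rps21 in KO alone, and 9 were called in neither. Rpl35 was not called in WT without WT bead replicate 1. In KO it was called under 4 alternative settings, among them array weights and the omission of the unnumbered KO library. Among the 9 were Rpl3l, Rpl10l and Rpl39l, which stood under 20 TPM, and Rpl5, Rpl17, Rpl39, Rps13 and Rps27. The WT and KO comparisons share no library, and their differences had a Pearson correlation of 0.84 and a Spearman correlation of 0.85 across the 82 genes, which are not independent of each other and share the depth of their libraries. The difference between the bead responses was called for none of the 82 (limma, 1 of 29989 genes, 0.00333%), and 1 member, Rpl3l, had an unadjusted p under 0.05, beside 4.16% of all genes. The median of this difference over the members was 0.35 toward a larger response in KO, beside 0.27 over all genes, and turned to -0.13 when libraries were scaled to the abundant genes.

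**Figure D2:**
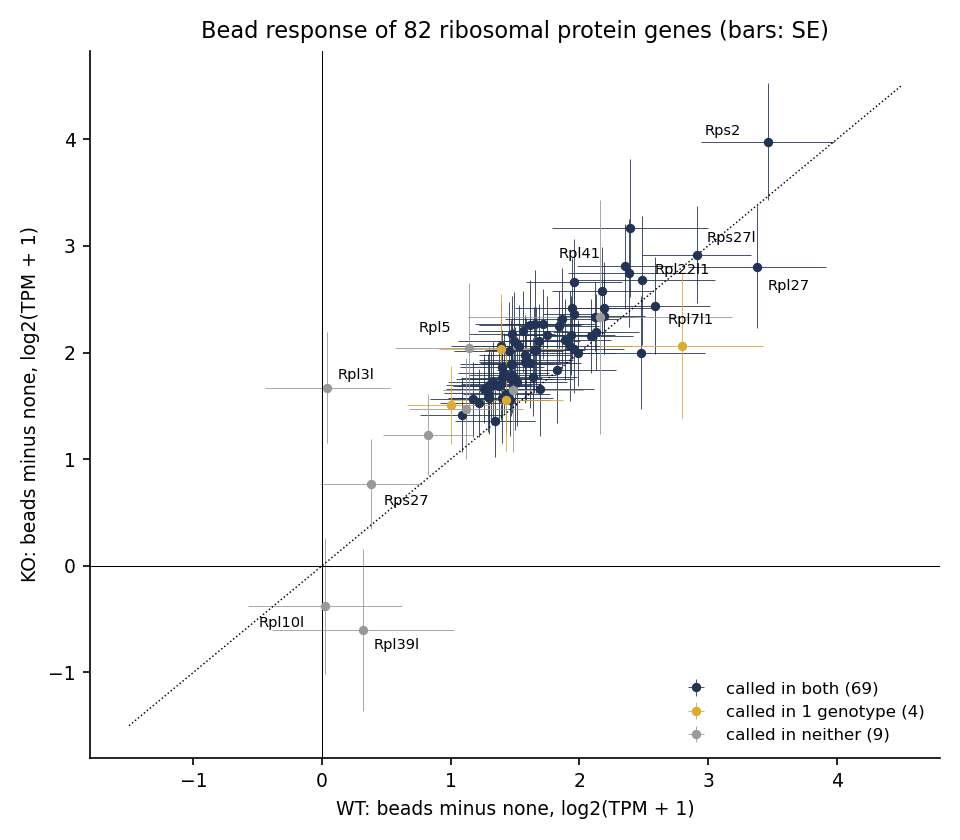
Difference with beads minus without in WT (horizontal) and KO (vertical) for 82 ribosomal protein genes on the log2(TPM + 1) scale, with standard errors as bars and the line of equal response dotted. Most genes lie between 1 and 3 in both, Rps2 lies highest in KO at 3.98, and Rps27 lies low at 0.38 and 0.76.

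Rps2, a small-subunit protein near the mRNA entry channel, gave the largest difference in both genotypes. It stood at 156, 347, 202 and 534 TPM in the 4 WT libraries without beads and at 3245, 3301 and 2673 TPM with beads. In KO it ranged from 64.1 to 365 TPM, median 175, without beads and was at 2476 and 3060 TPM with beads. The groups did not overlap, and the differences were 3.46 (SE 0.52, adjusted p = 0.0010) in WT and 3.98 (SE 0.55, adjusted p = 0.00052) in KO. Rps2 thereby went from 309.9 TPM on average in WT, below most members, to 3073 TPM, among the highest.

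Rpl10a, a large-subunit protein of the L1 stalk, had the smallest spread between libraries within groups (SD 0.230 on the log2 scale) and the smallest p of all members. Its values were 320, 370, 247 and 327 TPM in WT without beads and 1311, 1226 and 1117 TPM with beads. KO cells had 172 to 284 TPM, median 218.5, without beads and 1058 and 1237 TPM with beads. The rise was 1.95 in WT (SE 0.24, adjusted p = 0.00030) and 2.36 in KO (SE 0.26, adjusted p = 0.00011), with no overlap in either. At the other end, Rps13 had the widest spread (SD 1.55), with 8.40 TPM in KO replicate 1 without beads against a group median of 292 TPM.

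The stalk proteins Rplp0, Rplp1 and Rplp2, which recruit translation factors to the large subunit, rose in both genotypes. Rplp1 went from 1597, 594, 531 and 1098 TPM to 3186, 3221 and 3018 TPM in WT, and from 249 to 1109 TPM, median 464, to 2282 and 2565 TPM in KO. Bead libraries were above all others, with differences of 1.86 (SE 0.44) in WT and 2.32 (SE 0.47) in KO. Rplp0 and Rplp2 gave 1.56 and 1.65 in WT and 2.20 and 2.27 in KO. The WT call was lost for Rplp1 without WT bead replicate 1 or 2. That of Rplp2 was lost without any 1 of the 3 WT bead libraries or WT replicate 1 or 2 without beads. Quantile normalization ended the WT calls of Rplp0 (1.04, limma adjusted p = 0.054) and Rplp2 (1.12, limma adjusted p = 0.20).

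Rps6, the small-subunit protein phosphorylated by S6 kinase downstream of mTORC1, rose by 1.33 in WT (SE 0.35, adjusted p = 0.023) and 1.72 in KO (SE 0.37, adjusted p = 0.0096). Its WT values were 680, 484, 445 and 737 TPM without beads and 1485, 1467 and 1365 TPM with beads. Leaving out any 1 of the 3 WT bead libraries, or WT replicate 1 or 2 without beads, ended the WT call of Rps6 (adjusted p from 0.062 to 0.082), as did quantile normalization (0.72, adjusted p = 0.17). Rpsa, a small-subunit protein also known as the laminin receptor, rose from 260 ± 89.4 to 960 ± 24.2 TPM in WT (SD, n = 4 and 3). Rps19, a small-subunit protein whose loss causes Diamond-Blackfan anaemia, went from 1030 to 2904 TPM in WT and from 747 to 2652 TPM in KO, as group means. Rps27a, made as a fusion with ubiquitin, rose by 2.13 in WT and 2.19 in KO.

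Rpl5 and Rpl11, which with 5S ribosomal RNA bind and hold back Mdm2 when ribosome assembly is disturbed, were measured at very different levels. Rpl11 rose from 257 to 765 TPM in WT as group means and was called in both genotypes, though in WT not without bead replicate 1 or 2. Rpl5 stood at 9.62, 15.9, 28.9 and 24.5 TPM in WT without beads and 62.6, 36.8 and 30.8 TPM with beads. Its bead libraries lay above the others, but the difference of 1.14 (SE 0.57, adjusted p = 0.22) was not called in WT, nor was that of 2.04 (SE 0.61, adjusted p = 0.054) in KO. In KO it was called under 8 of the alternative settings, among them array weights (adjusted p = 0.018), a pseudocount of 5 and the omission of KO replicate 1 or of the unnumbered KO library. Rpl41, the shortest ribosomal protein, rose by 2.35 in WT and 2.81 in KO, from 518 to 2481 TPM as WT group means.

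The 4 X-linked members differed in size but not in the direction of their bead difference. Rps4x, which had the highest mean of all members over the 4 groups at 2059 TPM, rose by 1.38 in WT and 1.69 in KO, and was not called in WT without bead replicate 1 (adjusted p = 0.051). Rpl36a rose by 1.94 and 2.41 and Rpl10 by 2.48 and 2.00. The KO call of Rpl10 was lost under quantile normalization (1.57, adjusted p = 0.070), after rescaling without repeats (1.56, adjusted p = 0.052) and when only the compared groups were fitted (adjusted p = 0.0502). Rpl39 differed by 1.49 (adjusted p = 0.094) and 1.65 (adjusted p = 0.10) and was not called. It was called under 9 alternatives in WT, among them median-ratio scaling (2.11, adjusted p = 0.017), scaling to the abundant genes and the omission of the unnumbered WT library or of KO replicate 2, and under 4 in KO, among them the omission of the unnumbered KO library. Of 27 members called in KO among the 35 whose calls were followed through all settings, 10 were not called without KO bead replicate 4 and 18 without replicate 5. In the first 10 were Rps6, Rps19, Rps4x, Rplp1, Rplp2, Rpl10, Rpl11, Rpl22l1, Rpl27 and Rpl36a, and the 18 held these and Rplp0, Rpl7, Rpl7l1, Rpl15, Rpl35a, Rpl37a, Rps27a and Rps27l.

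**Figure D3:**
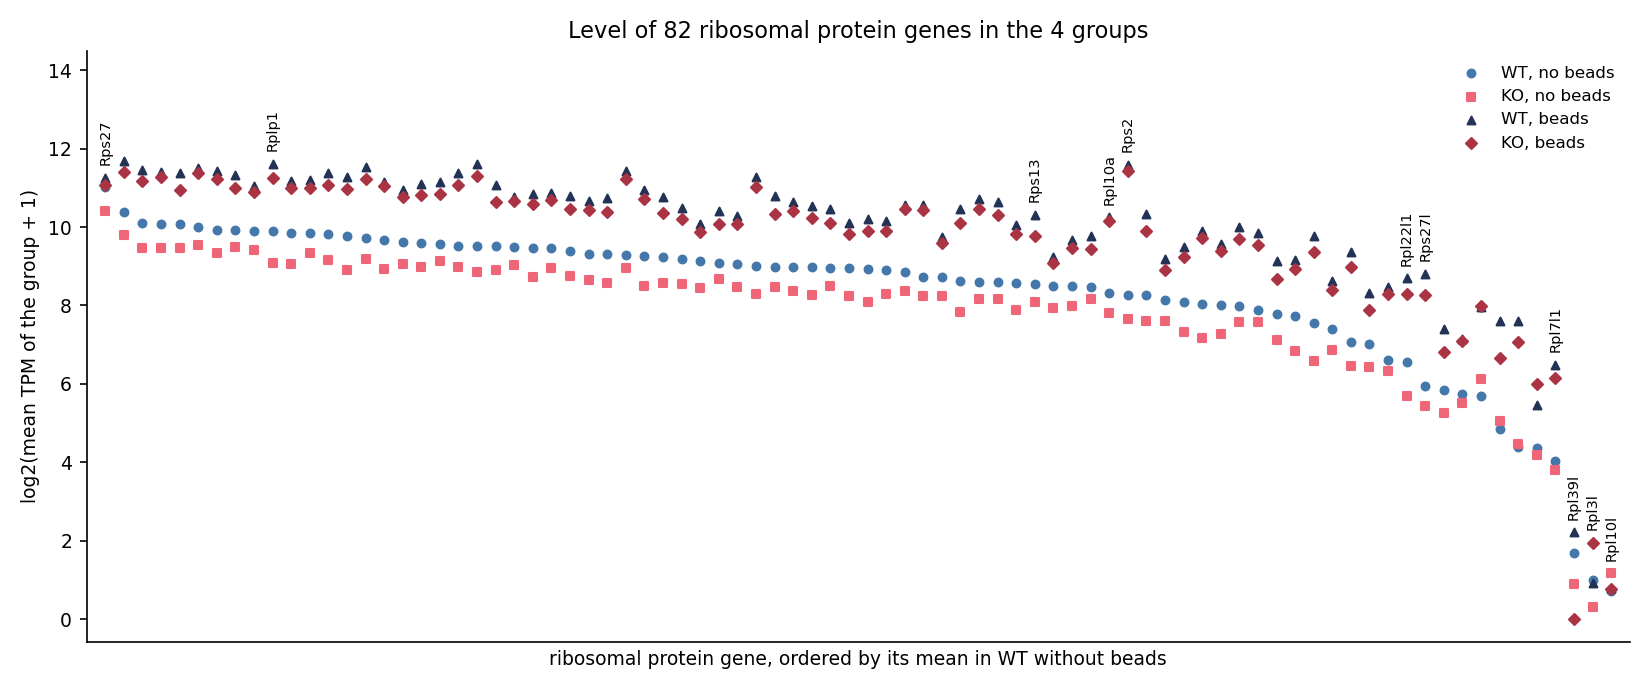
Level of each of the 82 genes as log2(group mean TPM + 1), ordered by the mean in WT cells without beads, with a symbol for each of the 4 groups. The bead groups lie above the groups without beads for nearly every gene, the gap is narrow for Rps27 at the left, and Rpl39l, Rpl3l and Rpl10l at the right lie under 4 TPM in all groups.

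Rps27, a small-subunit protein with a zinc finger, departed from the shared rise. It was the highest member without beads, with 3481, 1538, 1064 and 2181 TPM in WT and 912 to 2494 TPM, median 1184, in KO. With beads it was at 2749, 2187 and 2434 TPM in WT and 2161 and 2167 TPM in KO, so that the groups overlapped in both genotypes. The differences of 0.38 (SE 0.39, adjusted p = 0.58) in WT and 0.76 (SE 0.42, adjusted p = 0.32) in KO were not called. Its share of all ribosomal protein TPM went from 4.76 to 2.04% in WT and from 4.88 to 2.17% in KO, and its rank among members from 1 to 17 and from 1 to 11. The retrogene Rps27rt, a near copy of Rps27 outside the member rule, was at 228 ± 161 TPM (SD, n = 4) in WT cells without beads and 269 ± 28.7 TPM (SD, n = 3) with beads, and at 70.5 ± 95.4 (SD, n = 6) and 299 ± 122 TPM (SD, n = 2) in KO. Reads of the copies may have been split between them in the authors' quantification.

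Rps27l, the paralog of Rps27 and a known target of p53, rose in both genotypes, where Rps27 was not called. It was at 57.5, 57.7, 41.6 and 84.2 TPM in WT without beads and 447, 514 and 385 TPM with beads, and in KO at 17.2 to 64.4 TPM, median 40.4, and then 217 and 397 TPM. The groups did not overlap, and the difference was 2.91 in both genotypes (SE 0.43, adjusted p = 0.00093 in WT, SE 0.46, adjusted p = 0.0012 in KO). As a percent of Rps27 TPM, Rps27l went from 3.29 ± 1.10 (SD, n = 4) to 18.5 ± 4.30% (SD, n = 3) in WT and from 3.11 ± 0.989 (SD, n = 6) to 14.2 ± 5.83% (SD, n = 2) in KO. The highest library without beads reached 4.29% and the lowest with beads 10.1%.

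Of the other paralogs, Rpl7l1 and Rpl22l1 were expressed and rose. Rpl7l1 went from 2.04 ± 0.601 to 5.07 ± 0.260% of Rpl7 TPM in WT (SD, n = 4 and 3) with no overlap, and from 2.58 ± 1.09 to 4.32 ± 0.206% in KO (SD, n = 6 and 2), where the ranges overlapped. Its own difference was 2.59 (SE 0.43, adjusted p = 0.0018) in WT and 2.44 (SE 0.46, adjusted p = 0.0040) in KO. Rpl22l1, which can take the place of Rpl22 in ribosomes, rose by 2.49 (SE 0.56, adjusted p = 0.011) and 2.68 (SE 0.60, adjusted p = 0.012), and Rpl22 by 1.99 in both genotypes. Relative to Rpl22, Rpl22l1 stood at 38.0 ± 24.1% without and 45.9 ± 10.4% with beads in WT (SD, n = 4 and 3), and these ranges overlapped. In KO it stood at 27.0 ± 7.99% (SD, n = 6) and 41.9 ± 4.88% (SD, n = 2), with a highest value of 32.7% without and a lowest of 38.5% with beads. The paralogs known from muscle and testis stayed near the floor: Rpl3l, Rpl10l and Rpl39l reached at most 3.44, 2.20 and 8.93 TPM in any library, and each was listed at 0 in some libraries.

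**Figure D4:**
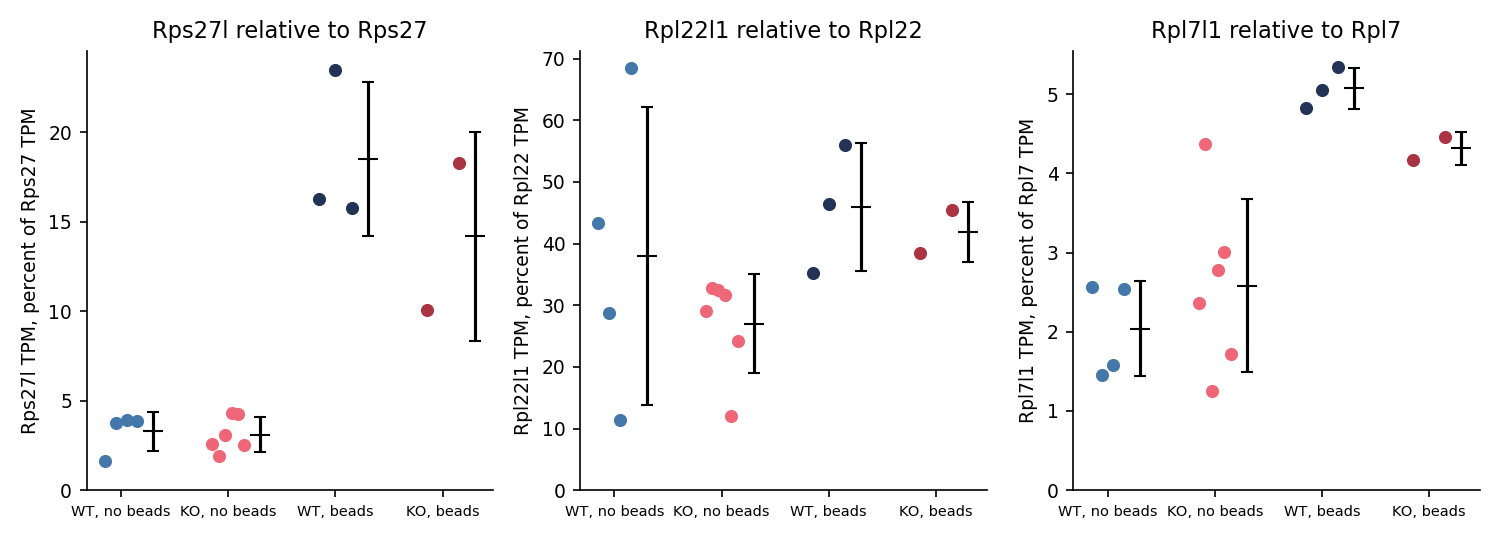
TPM of the paralogs Rps27l, Rpl22l1 and Rpl7l1 as a percent of the TPM of Rps27, Rpl22 and Rpl7, with a point for each library and the group mean ± SD beside it. Rps27l lies at 1.65 to 4.29% of Rps27 without and at 10.1 to 23.5% with beads, and the Rpl22l1 ranges overlap in WT but not in KO.

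To ask which genes departed from the shared rise, the fit was repeated, after these values had been seen, on levels relative to the median member of each library. In both genotypes Rps2, Rps27l, Rpl41 and Rps26 rose more than the median member, and Rps27 and Rpl21 were among those that lay below it. Rps27 was lower by 1.27 in WT (SE 0.23, unadjusted p = 2.9e-05) and by 1.22 in KO (SE 0.24, unadjusted p = 9.7e-05) on this relative scale, and Rps2 was higher by 1.81 (SE 0.41) and 2.00 (SE 0.44). In all, 13 genes were called in WT and 12 in KO. In this fit 75.2% of all genes were called lower in WT and 72.8% in KO, and 0.744% and 0.754% were called higher. Both directions were adjusted together, so the adjustment over genes was lenient for either. Rpl14, called higher in WT, had an unadjusted p of 0.036 and an adjusted p of 0.048 (limma). With a bead library left out the counts fell to as few as 7 in WT and 2 in KO.

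Some members cannot be measured apart from their processed pseudogenes. Of the 82, 47 had at least 1 listed pseudogene of their own name, and for 11 of them, Rpl10, Rpl15, Rpl17, Rpl19, Rpl23a, Rpl27, Rpl28, Rpl39, Rps13, Rps23 and Rpsa, the pseudogenes together held more TPM than the gene itself in WT cells without beads. Rpl10 stood at 50.2 TPM on average in WT without beads and its 2 pseudogenes at 752 TPM, and both were higher with beads, at 248 and 2906 TPM. Rpl27 was at 20.1 TPM and its 2 pseudogenes at 506.5 TPM. Near-identical sequences can take each other's reads, so the levels of these genes are uncertain. Only pseudogenes named after a member were counted here. Any copies listed under other names were left out, so the levels of further members may be uncertain too, which was not tested. Rpl35, for example, had no counted pseudogene and stood at 27.9 TPM on average in WT without beads. With pseudogene TPM added to each member, 72 genes were called in WT and 75 in KO, beside 11.3 and 8.13% of all genes. The Rpl27 difference in WT was then 1.84 in place of 3.38, and Rps13 was called with 1.61 in WT and 2.06 in KO. The pseudogene Rps12l1, which the annotation does not count as a member, went from 355 to 642 TPM in WT without beads to 2098 to 2526 TPM with beads.

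The start-site sequence of the members was searched for the TOP motif. RefSeq start sites on GRCm38.p6 (mm10) were given for 63 of the 83 genes. A C followed by at least 4 pyrimidines, beginning within 5 bases of the start on the gene strand, was found in 28 of the 63 (44.4%) and in 18.4% of 26962 other genes. The windows below, 15 bases before the start and 15 from it on, are shown for Rps2, with the largest bead difference, for Rps27 and its paralog Rps27l, for Rps6 and Rpl15 as plain examples of the run and for Rpl41, which rose without it, with pyrimidine runs of at least 5 in capitals. They lie at chr17:24720048-24720077 on the plus strand for Rps2, chr3:90213634-90213663 on the minus strand for Rps27, chr9:66946071-66946100 on the plus strand for Rps27l, chr4:86857353-86857382 on the minus strand for Rps6, chr14:18270972-18271001 on the minus strand for Rpl15 and chr10:128549154-128549183 on the minus strand for Rpl41.
Rps2: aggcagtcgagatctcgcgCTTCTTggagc
Rps27: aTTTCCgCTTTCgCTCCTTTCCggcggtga
Rps27l: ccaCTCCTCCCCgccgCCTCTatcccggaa
Rps6: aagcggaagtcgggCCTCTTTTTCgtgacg
Rpl15: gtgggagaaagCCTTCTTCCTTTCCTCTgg
Rpl41: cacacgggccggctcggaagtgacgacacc

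The run is present at the start of both Rps2 and Rps27, which stood at 3.46 and 0.38 in WT, and absent from the Rpl41 window. The bead difference had a median of 1.64 over the 28 genes with the run and 1.55 over 34 genes without it in WT, and of 2.03 and 1.94 in KO. Annotated starts can miss the start used in T cells, so the absence of these letters says only that they are not in that window. Over the 300 bases from 250 before to 50 after the start, CCGGAAG on either strand was found in 39.7% of the 63 members and 9.05% of other genes. CTTTCC on the gene strand was found in 34.9% and 14%, and CTCTTT on the gene strand, which can overlap it, in 34.9% and 11.9%. The E-box CACGTG, a palindrome bound by MYC with MAX, was found in 7.94% of members and 7.24% of other genes, and TATAAA on either strand in 9.52% and 14.2%.

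Other parts of the translation machinery rose with the members. Of 32 ribosome biogenesis genes 23 rose in WT and 24 in KO and none fell, where 4.6 and 5.95% of all genes rose, with medians of 2.56 and 2.75. Nop58, a core protein of box C/D small nucleolar ribonucleoproteins, went from 44.7 ± 8.85 TPM (SD, n = 4) to 383 ± 64.9 TPM (SD, n = 3) in WT, a difference of 3.08 (SE 0.28, adjusted p = 6.2e-05). Brix1, which acts in large-subunit assembly, rose by 2.67 in WT and 3.34 in KO. Of 18 other genes with known TOP mRNAs 13 rose in WT and 14 in KO, with medians of 1.54 and 2.01. The largest were Hnrnpa1, a splicing factor, at 3.36 and 3.24, and the nucleolar chaperone Npm1 at 3.01 and 3.13. Among 6 further ribosome components, 4 rose in each genotype, among them Rack1, a scaffold on the small subunit, Rpl36al and the retrogene Rpl37rt.

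Many genes of the mitochondrial ribosome, which translates the mRNAs of the mitochondrial genome, also passed the test. Of 78 mitochondrial ribosomal protein genes 44 rose in WT and 55 in KO and none fell, beside the same 4.6 and 5.95% of all genes, with medians of 1.60 and 2.07, close in size to the 1.57 and 2.00 of the cytosolic members. Their summed share went from 0.304 ± 0.0326 (SD, n = 4) to 0.831 ± 0.0197% of TPM (SD, n = 3) in WT and from 0.264 ± 0.0171 (SD, n = 6) to 0.700 ± 0.0436% (SD, n = 2) in KO. Of 125 pseudogenes named after cytosolic members, 15 rose in each genotype, with medians of 0.47 and 0.53.

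Among 13 genes that regulate ribosome production or TOP mRNA translation, 5 rose in WT and 4 in KO and none fell. Over all genes 4.6 and 5.95% rose. The median difference of the 13 was -0.08 in WT and 1.14 in KO. Myc, a transcription factor known to drive ribosome production, rose from 6.32 ± 3.29 (SD, n = 4) to 162 ± 19.8 TPM (SD, n = 3) in WT, a difference of 4.59 (SE 0.43, adjusted p = 6.2e-05), and differed by 4.88 in KO. Eif4e, the cap-binding protein, rose by 2.38 and 3.04, Trp53, which encodes p53, by 1.64 and 2.23, and Larp1 by 1.35 and 1.43. Eif4ebp1, a brake on Eif4e, was called in WT alone, at 1.98. Rptor, the mTORC1 scaffold, and Rps6kb1, which encodes S6 kinase, were not called, at -1.0 and -0.18 in WT and -0.13 and 0.22 in KO.

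DOCK8-deficient and WT cells were compared with and without beads. The summed share without beads was 4.85 ± 1.82% in WT (SD, n = 4) and 3.06 ± 1.33% in KO (SD, n = 6), and the ranges overlapped. Without beads none of the 82 genes was called in KO against WT cells (limma, 22 of 29989 genes, 0.0734%, of which 0.00667% higher and 0.0667% lower). At an unadjusted p under 0.05 stood 32 members, all lower in KO, beside 11.3% of all genes. That count was 5 without the unnumbered WT library, 8 without WT replicate 3, 11, 12 and 15 without KO replicates 2, 1 and 5, 20 without KO replicate 4, 59 without the unnumbered KO library and 61 without WT replicate 2. It was 10 when only the compared groups were fitted. The share of all genes at such a p was computed for the main fit alone, so these other counts cannot be set against it. The difference was below 0 for 79 members, beside 58.4% of all genes, with a median of -0.60, against -0.11 over all genes and -0.38 over the 787 abundant genes. No member separated the groups, as 1.27% of all genes did with KO below and 0.293% with KO above. Rpl37a, a large-subunit protein, had the smallest p: it stood at 291, 195, 140 and 226 TPM in WT and 77.7 to 207 TPM, median 98.8, in KO, a difference of -0.93 (SE 0.28, adjusted p = 0.23). Rpl3, at the peptidyl transferase center, differed by -0.78 (SE 0.26, adjusted p = 0.27), Rpl35a by -0.79 (SE 0.27, adjusted p = 0.29) and Rpsa by -0.89 (SE 0.31, adjusted p = 0.31). Rpl10 and Rpl10l were above 0 at 0.49 and 0.47, with standard errors of 0.42 and 0.50.

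The size of the KO difference depended on the scaling and the libraries used. When libraries were scaled to the abundant genes the median was -0.30 with 76 of 82 genes below 0, and 4 members had an unadjusted p under 0.05. After rescaling without the repeats it was -0.37 with 77 genes below 0, and 5 had such a p. When KO replicates 1, 2, 4 and 5, the libraries rich in repeats, were left out, the median was -0.01 with 44 genes below 0, and 1 had such a p. Those 4 libraries also had the lowest ribosomal protein shares of the group, at 2.03 to 2.67%. The 2 kept had the highest, at 3.54 and 5.54%, so this omission selects on the measured level as well. The share of all genes with an unadjusted p under 0.05 was not computed under these settings either. The T cell and regulatory T cell markers summed to less in KO as well. Their summed level was 1570 ± 303 TPM (SD, n = 6) against 2710 ± 677 TPM (SD, n = 4) in WT. As group means, Entpd1 was higher in KO, at 229 against 181 TPM. Il2ra and Ikzf2 were nearly level, at 11.2 against 11.3 and 20.5 against 21.9 TPM. The other markers of the list were lower in KO, among them Foxp3 at 13.3 against 43.2 TPM. Their part in the result was not tested.

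With beads none of the 82 genes was called in KO against WT (limma, 1 of 29989 genes, 0.00333%), and none had an unadjusted p under 0.05, beside 2.89% of all genes. The difference was below 0 for 78 members, beside 39.9% of all genes, with a median of -0.28, against 0.13 over all genes and 0.16 over the abundant genes. For 55 members both KO libraries lay below all 3 WT libraries, which held for 8.02% of all genes, and for 1 member, Rpl3l, both lay above, which held for 17.4%. The members share the total of each library, so their positions are not independent of each other, and KO replicate 4 lay below replicate 5 in the summed share (10.8 against 13.2%). Rpl7a, a large-subunit protein, was at 1405, 1256 and 1231 TPM in WT and 862 and 1034 TPM in KO, a difference of -0.46 (SE 0.37, unadjusted p = 0.23). Rpl35 was at 237, 180 and 167 TPM in WT and 105 and 95.5 TPM in KO, a difference of -0.93 (SE 0.76). Rpl39l, at 0.892, 1.14 and 8.93 TPM in WT and listed at 0 in both KO libraries, and Rpl3l, at 0, 1.22 and 1.45 TPM in WT and 3.44 and 2.27 TPM in KO, had the smallest p but lay near the floor of the assay. Without KO replicate 5 the median was -0.41 and without replicate 4 it was -0.13.

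**Figure D5:**
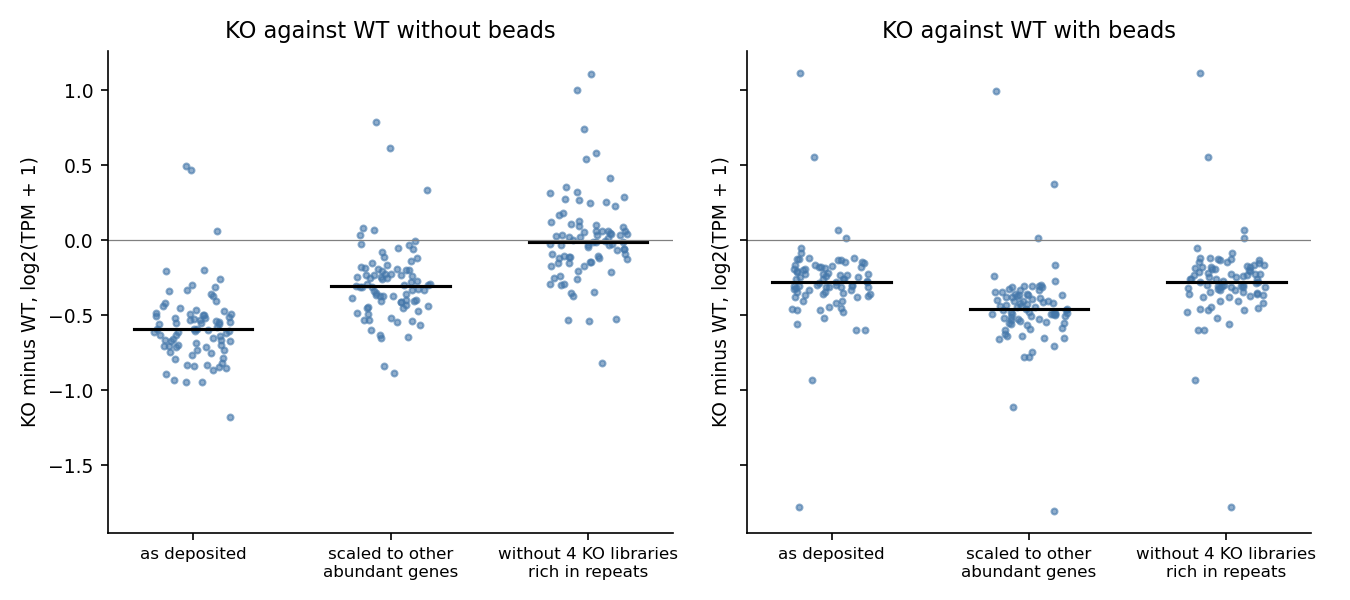
KO minus WT difference of each ribosomal protein gene on the log2(TPM + 1) scale, without beads (left) and with beads (right), as deposited, with libraries scaled to 787 other abundant genes, and without the 4 KO libraries rich in repeats. Points are genes, spread sideways for display, and the black line is their median. Without beads the median is -0.60, -0.30 and -0.01 in turn, and with beads it is -0.28, -0.46 and -0.28.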

How the data were processed

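Gene-level TPM were deposited by the authors in 1 table per library; per the submitters' processing notes STAR, Salmon, DESeq2 and mm10 were used, with no version or role stated in the sources used here. TPM keep no read depth, so depth is unknown and count models do not apply. The tables listed 819697 to 938139 TPM per library, 36904 genes without and 31785 with beads, and a difference in how these sets were made cannot be told apart from the beads. Groups came from the labels. The 29989 genes reaching 1 TPM in 2 or more of 15 libraries were fitted as log2(TPM + 1), using limma 3.58.1 under R 4.3.3, a mean for each group, a variance trend and 11 residual degrees of freedom. Contrasts of group means were adjusted by Benjamini-Hochberg and called under 0.05. Names and positions are from GENCODE vM21 (GRCm38), starts from RefSeq on GRCm38.p6. Genes were named by role, by the smallest p per comparison (up to 10 called in each direction, or 4 where fewer were called), by level and by spread; Rps12, Rps12l1, Rpl17, Rpl19, Rpl21, Rpl23a, Rpl28, Rps15a, Rps21, Rps23 and Rps26 fall outside that rule and were chosen after their values were seen. Members and lists were chosen with earlier results of these data known. The fit was tested on simulated data. Numbers in titles were taken as names: deviations of same-numbered libraries from their group means did not correlate, which cannot exclude a pairing. Alternatives covered the pseudocount, filter, scaling, pseudogenes, weights, blocks and each library left out.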

Additional observations from a re-analysis of the deposited data

Results flagged for a closer look

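Values of 35 named genes, and the summed share, were searched for a library far from the rest of its group, in the 2 groups of 4 to 10 libraries, and 10 of 72 sets of values held one, where chance gives about 1 in 20. In 9 of the 10 it was the unnumbered KO library without beads that lay above the other 5: Rplp0 at 882 TPM, Rplp1 at 1109, Rplp2 at 1184, Rps19 at 1348, Rps27a at 469, Rps27 at 2494, Rpl7 at 837, Rpl7a at 328 and Rpl37a at 207 TPM. These genes move together, so the 9 are not separate observations. The summed share of ribosomal protein genes in that library was 5.54%, the highest of the 6, and its repeat-derived genes took 30.9% of TPM, against 24.6 to 48.1% over the group. The tenth was Rpl27 in WT replicate 3 without beads, at 5.68 TPM against 24.2 to 25.5 TPM in the other 3 libraries, a gene whose pseudogenes together held more TPM than it did.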

How the results depend on the processing

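No member was called in KO against WT, with or without beads, or for the difference between bead responses, under any setting run, and no called bead difference of a named gene turned direction. Quantile normalization gave 39 members called with beads in WT, beside 6.99% of all genes, and a KO median of 1.52. Median-ratio scaling gave a WT median of 2.19. The median difference between bead responses turned to -0.11 under median-ratio scaling, -0.13 under scaling to abundant genes and -0.25 without the 4 KO libraries over 35% repeats. That omission, chosen after seeing the data, also gave -0.013 for KO against WT without beads, 19 calls and 1.34 for beads in KO, and 4.54% as the summed share of KO cells without beads. Rescaling without repeats gave shares of 4.81% in KO without beads and 16.3 and 14.1% in WT and KO with beads, and adding pseudogenes gave 18.2 and 15%; the cause of these changes, beyond their construction, was not tested. With each library left out in turn, members called with beads ranged from 40 to 74 in WT (76 without the 4 repeat-rich libraries) and from 9 to 77 in KO, those called relative to the median member from 7 to 15 and from 2 to 13, and medians from 1.34 to 1.78 and from 1.83 to 2.14. The median of KO against WT without beads ranged from -0.81 to -0.44, that of the difference between responses from 0.18 to 0.56, and the share of KO cells without beads from 2.56 to 3.26%. Over all genes and all settings, calls ranged from 1 to 67 for KO against WT without beads (22 as deposited), 0 to 19 with beads (1), 1654 to 6042 for beads in WT (3366), 382 to 3961 in KO (2431) and 0 to 6 for the difference (1). Fitting only the compared groups put 20 members at an unadjusted p under 0.05 (limma) in KO against WT with beads, where none stood there before. The share of all genes at such a p was not computed for that fit, so the 20 cannot be set against it. Of its 21420 genes 0.0887% were called, and no member was. Of the 28 and 27 followed members called with beads in WT and KO, 9 and 18 lost the call under at least 1 setting, and 2 and 5 of the others gained it. With the title number as a replicate block, 74 members were called in WT and 66 in KO, beside 7.76 and 3.07% of all genes. None was called in KO against WT. The same-numbered libraries correlated at -0.025 to 0.027, which does not show a pairing and cannot exclude one. The deviations of the 2 KO bead libraries from their mean mirror each other. Signs of named genes turned only where the difference was not called as deposited: in WT, Rpl10l to -0.20 at a pseudocount of 0.1 and -0.083 without repeats, Rpl3l to -0.010 at a pseudocount of 5, -0.068 without repeats, -0.093 with array weights and -0.22 with the block or without unnumbered libraries, and Rps27 to -0.23 under quantile normalization; in KO, Rpl10l to 0.63 without the repeat-rich libraries. With libraries left out these ranged in WT from -0.22 to 0.45 (Rpl3l), -0.54 to 0.39 (Rpl10l) and -0.45 to 0.75 (Rpl39l), and in KO from -1.0 to 0.63 (Rpl10l). Depth is unknown, which limits what can be said of values near 0.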
